A study of Homo sapiens with 4 samples.

Results

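The 38 genes described here are neighbours on chromosome 5q31, a stretch of the long arm around SKP1, PPP2CA and UBE2B, out of 57773 gene IDs in the tables. They were named as a stretch whose median was lower in MIA-PaCa2 cells resistant to AMG510 than in untreated ones, so the difference between these groups chose them and is given for them as a description, with no test. All 38 symbols matched 1 gene ID each, and 29 had enough counts to enter the fit over 16090 genes. The other 9 had 0 to 37 counts in all 4 libraries together. MIA-PaCa2 is an established human pancreatic cancer cell line, and AMG510 (sotorasib) is a targeted cancer drug. One group was untreated. The other group was grown in rising amounts of AMG510 over 2 months to a final 5 µM. Each group held 2 libraries of polyadenylated RNA, 1 from each of 2 cell populations, and the labels do not say whether the populations were set apart before selection or whether the drug was present at harvest. For resistant replicate 2 the treatment tag reads AMG511, while its title and the protocol say AMG510.

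Genes that lie side by side in the human genome are mostly transcribed each from its own promoter, so neighbours need not share a function or a level. The 5q31 stretch is known for its loss in myeloid blood disorders, and it holds many genes that nearly every cell uses. Its products include an adaptor of a ubiquitin ligase, the catalytic subunit of a phosphatase, a pore of the outer mitochondrial membrane, a translation release factor and parts of the coat of vesicles that leave the endoplasmic reticulum. It also holds genes of restricted expression, such as those for the neural factor NEUROG1 and the chemokine CXCL14. The question asked of the values is whether the members were lower by a like amount or each by its own.

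Expected counts summed to between 30146559 and 38052558 per library. Levels are in CPM, counts scaled to the size of each library, which do not correct for gene length. Fewer gene copies, fewer transcripts per copy and a changed mix of cells cannot be told apart in such bulk RNA, and DNA was not measured. Errors cover the spread between the 2 populations of a group. The keratin genes KRT8 and KRT18 were above 957 CPM and VIM above 5575 CPM in every library, EPCAM was at 1.33 to 2.09 CPM, and CDKN2A and MTAP, lost in this line, had 0 and 1 counts in all. Of 10 marker genes of other cell types 7 were under 1 CPM in all 4 libraries. Their summed level was 37.6 and 38.5 CPM in the untreated and 76.8 and 142 CPM in the resistant libraries, mostly from COL3A1, CD68 and CDH5. Of the blood cell markers listed, PTPRC and CD3E had 5 counts at most in any library. CD68, the other one, had 10.3 and 13.7 CPM in untreated and 33.7 and 9.39 CPM in resistant libraries. The part of these genes in the results was not tested. KRT8 stood at 3091 and 2076 CPM in untreated and 962 and 1245 CPM in resistant libraries.

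The members were lower by unequal amounts. Of the 29 tested members 26 had a log2 fold change (resistant over untreated) below 0, and 3, namely CDKL3, SEC24A and REEP2, had one above 0. The median of this log2 difference was −0.51, and single members lay between −1.68 and 0.22. In 23 members every resistant library was below every untreated one, in 1 (SEC24A) every resistant library was above, and in 5 the groups overlapped. Among all tested genes 36.3% were lower and 34.6% higher without overlap. With edgeR's quasi-likelihood test, adjusted over all tested genes, 12 members were called lower and 0 higher, beside 17.4% of all tested genes called lower and 16.6% called higher. In the rest of chromosome 5, 35.9% of tested protein-coding genes were called lower and 11.3% higher, and 58.8% were lower without overlap. At a mean of 10 CPM or more, 45.8% of members and 42.3% of the rest of chromosome 5 were called lower. Since the rule used this contrast, nothing is read from these counts. Leaving out each library in turn gave 9 to 13 of these 29 members called lower, and 6 of the 12 called lower overlap no other expressed gene. The call of SAR1B ended under each alternative run, that of C5orf24 without untreated or resistant replicate 1, and that of SMAD5 on leaving out either untreated library or resistant replicate 1. CATSPER3 and GFRA3 passed the filter on low counts only through the untreated group. The other 27 had a median of −0.50.

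**Figure D1:**
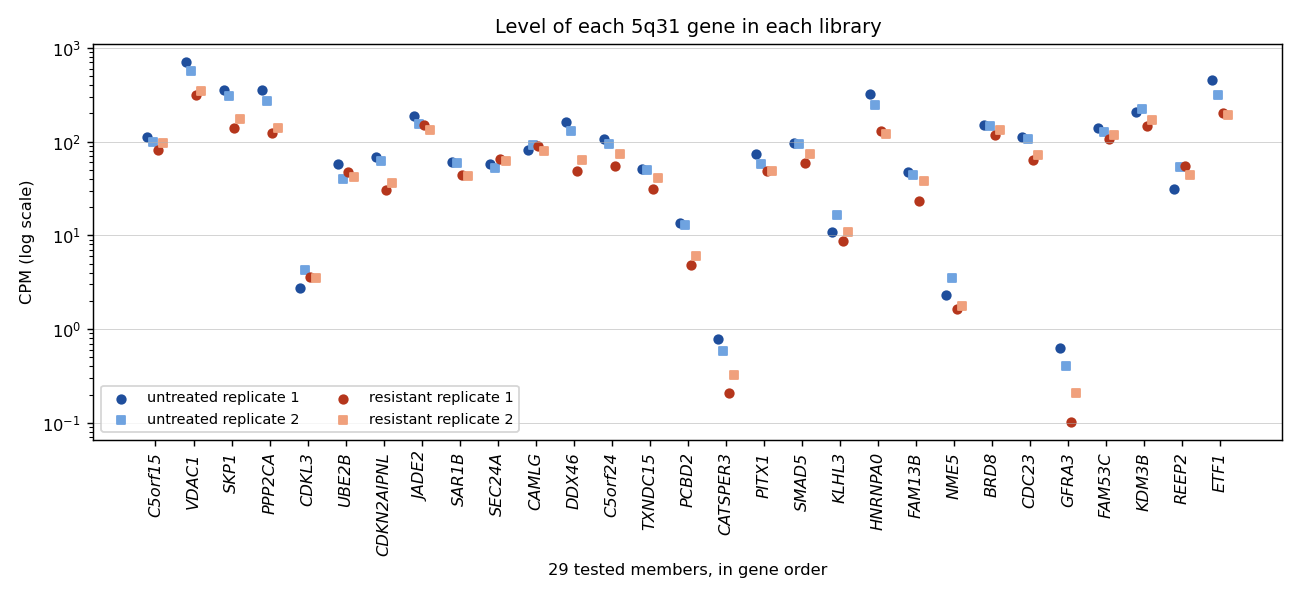
Level of the 29 tested members in gene order along the stretch, in CPM on a log axis, with 1 point for each of the 4 libraries. Red points (resistant) lie below blue ones (untreated) in 23 members and above them in SEC24A.

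The ubiquitin and cell cycle genes of the stretch differed among themselves. SKP1, the adaptor that ties F-box proteins to the cullin of SCF ubiquitin ligases, stood at 355 and 306 CPM in the untreated libraries and at 141 and 174 CPM in the resistant ones. This was a log2 fold change of −1.07 (SE 0.18), and the resistant mean was 47.6% of the untreated one. CDC23, a subunit of the anaphase-promoting complex that starts chromosome separation, had 113 and 107 CPM in untreated and 63.9 and 71.2 CPM in resistant libraries (log2 difference −0.70, SE 0.15). Its groups did not overlap either. UBE2B, the RAD6-type ubiquitin-conjugating enzyme of DNA damage tolerance, had 58.3 and 40.2 CPM in untreated and 47.6 and 42.2 CPM in resistant libraries. Both resistant values of UBE2B lay between the untreated ones, and its log2 fold change of −0.13 (SE 0.20) became 0.18 without untreated replicate 1. KLHL3, which brings WNK kinases to the cullin CUL3, was low, at 10.8 and 16.3 CPM in untreated and 8.73 and 10.98 CPM in resistant libraries, and its groups overlapped (−0.46, SE 0.27). CDKN2AIPNL, a small relative of the protein CDKN2AIP, had 68.4 and 62.0 CPM in untreated and 30.7 and 36.4 CPM in resistant libraries (−0.96, SE 0.17). CDKL3, a cyclin-dependent kinase-like protein, had 2.74 and 4.27 CPM in untreated and 3.62 and 3.55 CPM in resistant libraries. Its log2 fold change of 0.03 (SE 0.37) was −0.23 without untreated replicate 1.

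PPP2CA, the alpha isoform of the catalytic subunit of protein phosphatase PP2A, had 352 and 271 CPM in untreated and 122 and 141 CPM in resistant libraries. The resistant mean was 42.3% of the untreated one (log2 fold change −1.24, SE 0.18). The genes that handle RNA and end translation were among the lowest members. DDX46, a helicase needed for the U2 particle to join the spliceosome, had 163 and 130.3 CPM in untreated and 48.9 and 64.3 CPM in resistant libraries. With −1.38 (SE 0.19), DDX46 had the lowest log2 fold change of the 24 members at a mean of 10 CPM or more. HNRNPA0, an RNA-binding protein of the hnRNP A/B family, had 326 and 243 CPM in untreated and 129.9 and 121 CPM in resistant libraries (−1.18, SE 0.18). ETF1, the release factor that recognises stop codons, had 451 and 316 CPM in untreated and 200.1 and 191 CPM in resistant libraries (−0.97, SE 0.19). In each of these 3 genes both resistant libraries were below both untreated ones.

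VDAC1, the main pore of the outer mitochondrial membrane, was the most abundant member, at 707 and 560.4 CPM in untreated and 316 and 344 CPM in resistant libraries (log2 difference −0.94, SE 0.18). Its value is uncertain, since VDAC1 has processed pseudogenes and its estimated counts were not whole numbers. PCBD2, a pterin dehydratase that also binds the transcription factor HNF1, had 13.4 and 12.9 CPM in untreated and 4.83 and 6.01 CPM in resistant libraries (−1.28, SE 0.26). Neither gene's groups overlapped, and the resistant mean of PCBD2 was 41.2% of the untreated one.

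The members of the secretory pathway and its membranes differed among themselves too. REEP2 and SEC24A had the highest log2 fold changes of the tested members, while SAR1B and TXNDC15 lay close to the members' median. SEC24A, a cargo-binding subunit of the COPII vesicle coat, had 57.8 and 52.3 CPM in untreated and 65.0 and 62.2 CPM in resistant libraries (log2 difference 0.21, SE 0.16). SAR1B, the GTPase that starts assembly of that coat, had 60.4 and 58.5 CPM in untreated and 44.1 and 43.0 CPM in resistant libraries (−0.45, SE 0.16). The 2 genes of the same coat thus lay on different sides of 0, each without overlap between groups. CAMLG, a receptor for the insertion of tail-anchored proteins into the endoplasmic reticulum, had 81.7 and 93.1 CPM in untreated and 89.2 and 79.7 CPM in resistant libraries. Its groups overlapped, and its log2 fold change of −0.05 (SE 0.16) was above 0 without untreated replicate 2 or resistant replicate 2 (0.04 and 0.03). REEP2, which shapes the tubules of the endoplasmic reticulum, had 31.2 and 54.1 CPM in untreated and 55.6 and 43.8 CPM in resistant libraries. REEP2 overlapped as well, and its log2 fold change of 0.22 (SE 0.26) was −0.10 without untreated replicate 1. TXNDC15, a membrane protein with a thioredoxin domain, had 51.6 and 50.3 CPM in untreated and 31.2 and 40.6 CPM in resistant libraries (−0.51, SE 0.18).

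The members that act in chromatin and in transcription are given next. KDM3B, a demethylase of histone H3, had 208 and 222 CPM in untreated and 146 and 171 CPM in resistant libraries (log2 difference −0.44, SE 0.16). SMAD5, which carries signals from BMP receptors to the nucleus, had 95.9 and 93.6 CPM in untreated and 59.8 and 73.8 CPM in resistant libraries (−0.50, SE 0.16). PITX1, a homeobox factor of limb and pituitary development, had 73.7 and 57.1 CPM in untreated and 48.5 and 48.6 CPM in resistant libraries (−0.43, SE 0.17). These 3 genes lay close to the median of the members and did not overlap between groups. JADE2, a scaffold of the HBO1 acetyltransferase complex, had 188 and 155 CPM in untreated and 152 and 133 CPM in resistant libraries (−0.27, SE 0.17). BRD8, a bromodomain subunit of the NuA4/TIP60 acetyltransferase complex, had 152 and 146 CPM in untreated and 116 and 133 CPM in resistant libraries (−0.25, SE 0.16). The untreated values of JADE2 and BRD8 were above the resistant ones by little: the lower untreated JADE2 value, 155 CPM, was next to a resistant value of 152 CPM.

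Of the genes with a less settled function, FAM53C (−0.25, SE 0.16) and C5orf15 (−0.25, SE 0.16) had nearly the same log2 fold change, whereas C5orf24 (−0.63, SE 0.18) and FAM13B (−0.59, SE 0.22) were lower. FAM13B was far apart in the resistant populations, at 23.3 and 37.7 CPM beside 47.3 and 44.6 CPM in untreated libraries. C5orf24 had 105 and 94.4 CPM in untreated and 54.9 and 74.3 CPM in resistant libraries. For C5orf15 the highest resistant value, 96.5 CPM, was close to the lowest untreated one, 99.4 CPM. FAM53C had 140.1 and 126 CPM in untreated and 107 and 117 CPM in resistant libraries.

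At the low end, NME5, a protein of sperm and cilia, had 2.30 and 3.55 CPM in untreated and 1.66 and 1.75 CPM in resistant libraries (log2 difference −0.78, SE 0.41). CATSPER3, a subunit of the sperm calcium channel, had 0.785 and 0.588 CPM in untreated and 0.207 and 0.326 CPM in resistant libraries. GFRA3, a receptor for the neurotrophic factor artemin, had 0.623 and 0.401 CPM in untreated and 0.104 and 0.207 CPM in resistant libraries. The log2 fold changes of CATSPER3 (−1.34, SE 0.61) and GFRA3 (−1.68, SE 0.69) have the largest errors among the members. Among the members that were not tested, SPOCK1, a matrix proteoglycan, had 27 and 9 counts in untreated and 0 and 1 counts in resistant libraries, a level 30.8 times as high in untreated as in resistant cells, with a 95% counting interval of 5.19 to 1252. SLC25A48, a mitochondrial carrier, had 9 and 4 counts in untreated and 0 in both resistant libraries, at least 3.71-fold lower against 3 counts over the group. WNT8A, a WNT ligand, had 0 and 2 counts in untreated and 2 and 10 in resistant libraries. Its groups overlapped, and the excess came from resistant replicate 2. Over the summed counts of each group, resistant over untreated was a ratio of 7 (interval 1.56 to 64.4). CXCL14 and MYOT, a muscle protein, had 1 count each, in resistant replicates 1 and 2. FSTL4, TIFAB, NEUROG1 and TRPC7 had 0 counts in all 4 libraries, which allows a level of up to 0.0788 to 0.0995 CPM (3 counts) per library. These intervals and limits cover counting error only.

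Per kilobase of the principal transcript, VDAC1 (325 CPM per kb), ETF1 (102 CPM per kb) and PPP2CA (66.9 CPM per kb) led the members in untreated cells, and GFRA3 was last, at 0.251 CPM per kb. Across the 24 members at 10 CPM or more, the log2 fold change and the mean log2 CPM had a Spearman correlation of −0.39, against −0.03 over all 29 and −0.06 over 404 other chromosome 5 genes at 10 CPM or more. Both axes come from the same 4 libraries and genes are not independent replicates, so these are descriptions.

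The spread among members was larger than the errors of the single genes. The standard deviation of the log2 fold changes was 0.50, beside a median standard error of 0.18, and their interquartile range was 0.72. Only 10 of the 29 members (34.5%) lay within 0.25 of their own median, and 19 (65.5%) within 0.5. Over all tested genes the shares within 0.25 and 0.5 of their own median were 26.9% and 49.6%, and over 548 other protein-coding genes of chromosome 5 they were 30.8% and 53.6%. At 10 CPM or more, the interquartile range was 0.69 in 24 members, 0.81 in the rest of chromosome 5 and 0.83 in genes of the other chromosomes. The other scalings moved the median of all genes by 0.03 at most and turned the sign of no member.

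**Figure D2:**
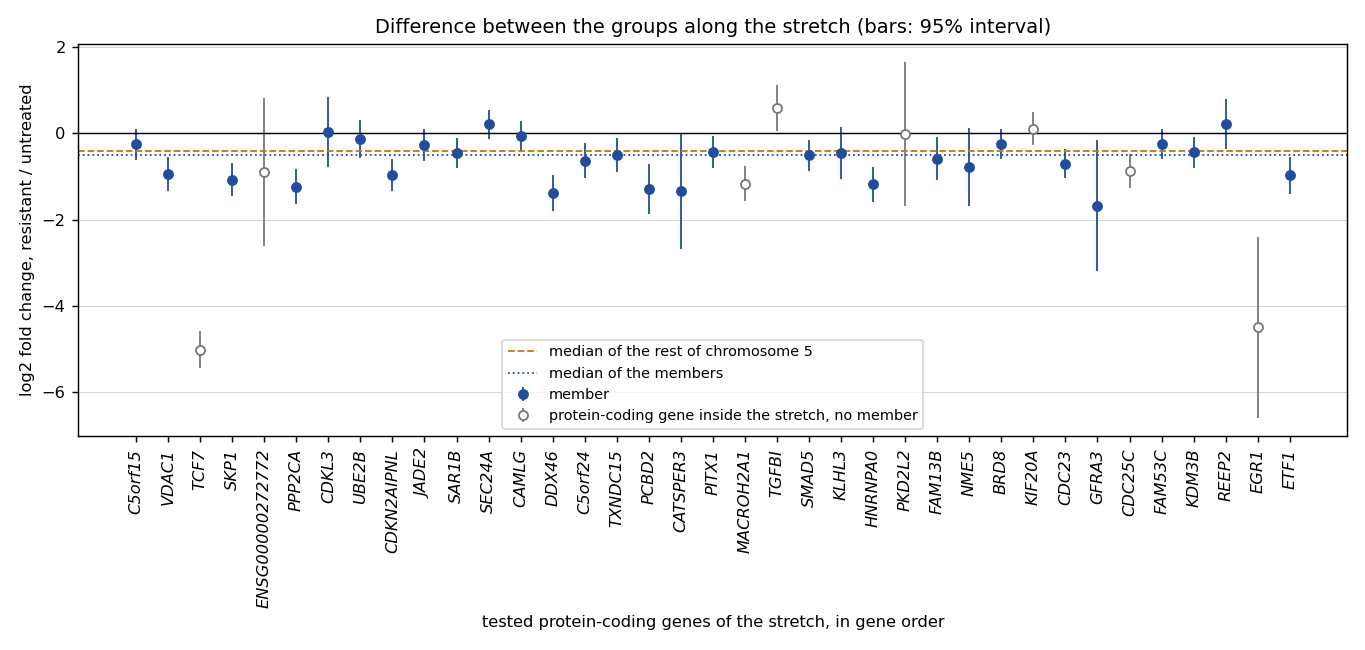
Log2 fold change of the 29 tested members (filled) and of 8 other tested protein-coding genes of the stretch (open), in gene order, with 95% intervals from the quasi-likelihood fit. Members from −1.38 to 0.21 stand next to each other, and TCF7 and EGR1, which are no members, lie far below.

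Members that follow each other on the chromosome can be compared within a library, where scaling cancels. Among 23 pairs of consecutive members at 10 CPM or more, the log2 ratio differed between the groups by over 0.5 in 11, and in 10 of these the groups did not overlap. No such count is given for neighbouring genes elsewhere in the genome, so these counts do not set the stretch apart. DDX46 had 2.00 and 1.40 times the level of its neighbour CAMLG in the untreated libraries, but 0.548 and 0.808 times in the resistant ones. The order of the 2 genes was thus turned in both resistant libraries, a difference of −1.33 in log2. CDKN2AIPNL stood at 1.17 and 1.54 times UBE2B in untreated and at 0.645 and 0.862 times in resistant libraries. UBE2B reached 0.166 and 0.149 times PPP2CA in untreated and 0.389 and 0.299 times in resistant libraries. SEC24A had 0.957 and 0.893 times the level of SAR1B in untreated and 1.47 and 1.45 times in resistant libraries, the closest replicates of these pairs. ETF1 had 14.4 and 5.84 times the level of REEP2 in untreated and 3.60 and 4.36 times in resistant libraries, with the untreated libraries far apart. By contrast SKP1 kept to VDAC1, at 0.502 and 0.547 times in untreated and 0.447 and 0.506 times in resistant libraries, and these groups overlapped. With 2 libraries against 2 an exact two-sided permutation test cannot go below p = 0.333, so no test was made of a single ratio.

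**Figure D3:**
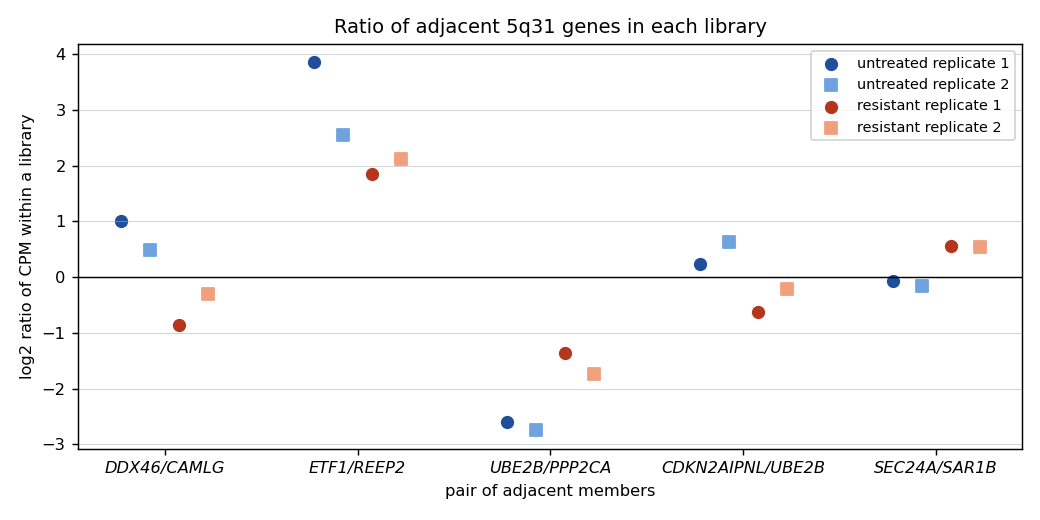
Log2 ratio of CPM between consecutive members within each of the 4 libraries, for 5 pairs. All 5 are among the 10 of 23 pairs that differed by over 0.5 between the groups without overlap. Blue (untreated) and red (resistant) points therefore do not overlap in any pair drawn. DDX46 is above CAMLG in untreated and below it in resistant libraries.

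The promoter windows of 2 such pairs are shown because their genes are neighbours and yet differed between the groups by unlike amounts. They are RefSeq windows on GRCh38.p14, from 250 bases before to 50 bases after a gene's start, 5′ to 3′ on the gene's strand. Capitals mark exact matches on either strand to any of 5 short motifs. The GC box, which the factor SP1 can bind, was searched as GGGCGG. The CCAAT box, which the factor NF-Y can bind, was searched by those letters. The ETS motif, which factors of the ETS family can bind, was searched as CCGGAAG. The E-box, which MYC and its relatives can bind, was searched as CACGTG. The TATA box, which the general transcription machinery can bind, was searched as TATAAA. The motifs can overlap each other in 1 window. The windows are chr5:134632779-134633078 (minus strand) for SAR1B, chr5:134648535-134648834 (plus) for SEC24A, chr5:134738298-134738597 (plus) for CAMLG and chr5:134758529-134758828 (plus) for DDX46.
SAR1B: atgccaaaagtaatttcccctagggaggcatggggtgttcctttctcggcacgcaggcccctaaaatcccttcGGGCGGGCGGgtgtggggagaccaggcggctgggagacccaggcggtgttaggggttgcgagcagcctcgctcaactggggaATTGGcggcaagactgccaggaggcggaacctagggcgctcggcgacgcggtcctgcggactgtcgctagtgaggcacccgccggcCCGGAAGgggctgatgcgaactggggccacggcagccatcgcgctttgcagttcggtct
SEC24A: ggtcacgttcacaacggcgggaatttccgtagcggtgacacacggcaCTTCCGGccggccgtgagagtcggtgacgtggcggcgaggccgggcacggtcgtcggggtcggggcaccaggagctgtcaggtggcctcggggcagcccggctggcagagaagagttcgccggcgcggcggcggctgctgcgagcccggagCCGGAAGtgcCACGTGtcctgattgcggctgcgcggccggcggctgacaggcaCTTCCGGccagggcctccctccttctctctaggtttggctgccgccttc
CAMLG: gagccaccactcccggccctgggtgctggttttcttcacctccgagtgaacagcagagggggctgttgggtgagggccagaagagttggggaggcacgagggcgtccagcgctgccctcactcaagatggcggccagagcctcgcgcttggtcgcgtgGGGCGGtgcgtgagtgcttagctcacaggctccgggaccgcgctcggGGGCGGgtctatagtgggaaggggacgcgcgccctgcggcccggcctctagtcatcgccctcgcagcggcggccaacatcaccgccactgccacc
DDX46: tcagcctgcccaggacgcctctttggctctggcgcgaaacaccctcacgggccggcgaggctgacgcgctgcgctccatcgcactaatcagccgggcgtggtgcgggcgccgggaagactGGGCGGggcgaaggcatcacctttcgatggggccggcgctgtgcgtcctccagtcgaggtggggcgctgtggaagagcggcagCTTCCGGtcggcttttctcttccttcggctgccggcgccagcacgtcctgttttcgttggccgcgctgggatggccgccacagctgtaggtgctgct
All 4 windows are rich in G and C, with 66% (SAR1B) to 71.3% (SEC24A) of bases and 26 to 37 CpG, and none holds a TATA box. SEC24A holds 3 ETS matches and 1 E-box, SAR1B and DDX46 each hold 1 ETS match, and CAMLG holds 0 ETS matches and 2 GC boxes. Windows were found for 35 members, among them 28 of the 29 tested ones (all but UBE2B), and 41 member windows were searched. Of these, 61.0% hold a GC box, 41.5% a CCAAT box and 17.1% an ETS match, beside 45.0%, 34.6% and 10.3% of all 35116 windows. Windows of the other tested protein-coding genes held them at 66.2%, 34.4% and 16.7%. An E-box was in 12.2% (5) and a TATA box in 7.32% (3) of the members' windows, beside 7.26% and 11.5% of all windows. In windows of the other tested protein-coding genes these 2 shares were 9.19% and 6.09%. A median of 26 CpG per member window stood beside 25 in those of other tested protein-coding genes. A match is a run of letters and shows no bound factor.

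Genes within and around the stretch that are no members had a wider range than the members, from −5.01 to 0.59 for those inside it. Of 12 such protein-coding genes inside it 8 were tested, and they too belong to the stretch that was picked for its median. TCF7, a transcription factor of WNT signalling, had 504 and 531 CPM in untreated and 17.1 and 14.95 CPM in resistant libraries (log2 difference −5.01, SE 0.19). EGR1, an immediate early gene induced by ERK, had 56.8 and 33.7 CPM in untreated and 0.621 and 3.29 CPM in resistant libraries (−4.50, SE 0.79), or −6.18 without resistant replicate 2 and −3.77 without resistant replicate 1. MACROH2A1, a histone variant (−1.17, SE 0.18), and CDC25C, a phosphatase of mitotic entry (−0.87, SE 0.18), lay among the lower members. KIF20A, a mitotic motor (0.11, SE 0.17), and TGFBI, a matrix protein (0.59, SE 0.24), were above 0, and TGFBI was at 0.18 without resistant replicate 1. PKD2L2 (−0.01, SE 0.76) and ENSG00000272772 (−0.90, SE 0.77) had too few counts to place.
With these 8 genes the stretch held 37 tested protein-coding genes, with a median of −0.59. Just outside it, next to the outermost members FSTL4 and ETF1, HSPA4, a chaperone partner of HSP70, had a log2 fold change of −0.87 (SE 0.18) and HSPA9, the mitochondrial HSP70, one of −0.90 (SE 0.19). Next came ZCCHC10 (−0.28, SE 0.22) and AFF4 (0.24, SE 0.19) before the stretch, and CTNNA1 (−0.15, SE 0.16) and SIL1 (0.48, SE 0.16) after it. The median was −0.36 over the 15 genes before and −0.26 over the 15 genes after the stretch.

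Chromosome 5 as a whole was lower. Outside the members its 548 tested protein-coding genes had a median of −0.40, and 386 of them (70.4%) were below 0, compared with 89.7% of the members. Running medians of 15 genes in gene order, wholly within the stretch, lay between −0.63 and −0.45. Along the chromosome they ranged from −0.94 to 0.30 with a median of −0.39, and 530 of 563 were below 0. Outside the 23 windows within the stretch, 51 windows were as low as the lowest of these or lower. Some of these 51 lie across the edges of the stretch and hold genes of it, such as the window centred on VDAC1, at −0.90. Of all windows 28.1% were at or under −0.51, the median of those within the stretch. The difference between the members and the rest of the chromosome was not tested, since the members were picked for their median.

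**Figure D4:**
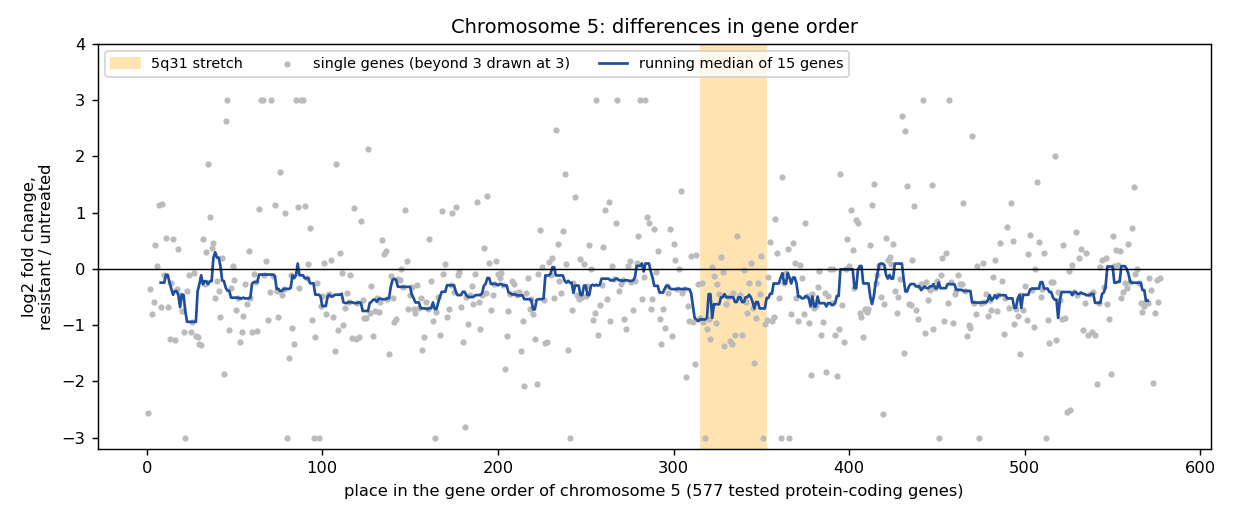
Log2 fold change of 577 tested protein-coding genes of chromosome 5 in gene order (grey) and the running median of 15 genes (blue), with the 5q31 stretch shaded. Windows wholly within the stretch lie between −0.63 and −0.45, while windows across its edges and at other places of the chromosome reach lower values; single genes beyond 3 in either direction are drawn at 3.

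The 2 populations of each group were not alike over these genes. Against the mean of the untreated libraries, the members' median log2 ratio was −0.71 in resistant replicate 1 and −0.43 in resistant replicate 2, and in the rest of chromosome 5 it was −0.44 and −0.35. In 20 of 29 members (69.0%) resistant replicate 1 was below replicate 2, compared with 63.3% of the rest of chromosome 5 and 50.7% of all tested genes. At 10 CPM or more these shares were 66.7% of members and 66.3% of the rest of chromosome 5. Untreated replicate 1 was above replicate 2 in 23 members (79.3%), compared with 56.0% of the rest of chromosome 5, and at 10 CPM or more in 83.3% and 64.9%. Without resistant replicate 2 the median log2 fold change of the same 29 members was −0.71, and without resistant replicate 1 it was −0.41. Leaving out 1 library moved the log2 fold change of 11 members by over 1.5 times without turning its sign. It ran from −0.98 to −0.27 for FAM13B, from −0.70 to −0.14 for KLHL3, from −0.61 to −0.21 for PITX1 and from −0.41 to −0.0961 for JADE2. C5orf24 ran from −0.86 to −0.41, TXNDC15 from −0.71 to −0.31 and NME5 from −1.04 to −0.45. The other 4 were C5orf15, BRD8, FAM53C and SEC24A. Calls began for PITX1 without untreated replicate 2, and for TXNDC15 and FAM13B without resistant replicate 2. Each side is 1 library, so these differences have no replicate check.

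Some members share reads with other genes, and the strand setting is not given in the sources used here. SKP1 shares exon sequence with TCF7 on the opposite strand, and SKP1, PPP2CA and CDKL3 share it with unnamed genes on the same strand. DDX46 and C5orf24 overlap on the same strand, as CATSPER3 does with PCBD2. SAR1B and SEC24A overlap each other on opposite strands, BRD8 and CDC23 overlap KIF20A, and FAM53C overlaps CDC25C. The values of these 11 members are uncertain to that extent. Over the 18 members with no such overlap the median was −0.50 and the interquartile range 0.65.

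Genes elsewhere in the genome that are close relatives of a member were not used to choose the members, so the test over all genes was applied to them. The lists of relatives, and those of partners given below, were however chosen with earlier results of these data known, which limits these tests. For PPP2CA the relative is PPP2CB, the beta isoform of the same subunit, at 73.5 and 60.1 CPM in untreated and 68.5 and 61.3 CPM in resistant libraries. PPP2CB did not pass (log2 fold change −0.04, 95% interval −0.41 to 0.33, adjusted p = 0.874 with edgeR's quasi-likelihood test). PPP2CA made up 67.4% and 66.1% of the pair's CPM per kilobase in untreated and 43.5% and 49.8% in resistant libraries. UBE2A, the near twin of UBE2B, did not pass either (−0.05, interval −0.40 to 0.30, adjusted p = 0.834), and UBE2B's share of the pair was 24.1% to 28.0% in untreated and 23.2% to 27.2% in resistant libraries. Of the other VDAC pores, VDAC3 fell, from 183 and 136 CPM to 82.3 and 97.3 CPM (−0.83, SE 0.19, adjusted p = 0.00688), and VDAC2 did not pass (−0.39, adjusted p = 0.0872). All 3 VDAC genes were thus lower in both resistant libraries, only VDAC1 being on chromosome 5. The call of VDAC3 ended without untreated replicate 1 (log2 fold change −0.58).
SAR1A, the relative of SAR1B, did not pass (0.19, adjusted p = 0.367), and the summed CPM per kilobase of both SAR1 genes was 20.1 and 21.4 in untreated and 19.3 and 20.8 in resistant libraries. Among the relatives of SEC24A, SEC24D rose from 12.3 and 13.5 CPM to 47.2 and 51.8 CPM (1.94, SE 0.18, adjusted p = 5.5e-05), while SEC24B (0.39, adjusted p = 0.0823) and SEC24C (0.18, adjusted p = 0.386) did not pass. SMAD9, which like SMAD5 is driven by BMP receptors, rose from 3.06 and 4.35 CPM to 7.83 and 12.1 CPM (1.43, SE 0.33, adjusted p = 0.00855), and SMAD1 did not pass (−0.39, adjusted p = 0.258). JMJD1C, a relative of KDM3B, rose (0.90, SE 0.18, adjusted p = 0.00373) and KDM3A did not pass (0.37, adjusted p = 0.0851). KDM3B had 64.6% and 64.0% of the CPM per kilobase of these 3 genes in untreated and 47.3% and 48.7% in resistant libraries, while the sum of the 3 was 47.2 and 51.0 in untreated and 45.4 and 51.4 in resistant libraries. JADE1 (0.72, SE 0.16, adjusted p = 0.00616) and JADE3 (0.56, SE 0.18, adjusted p = 0.0342), the relatives of JADE2, both rose. JADE2's share of that family went from 66.4% and 61.6% to 52.6% and 44.8%. Sums of CPM per kilobase follow for the other families, untreated libraries first. They were 112, 88.2, 60.5 and 60.9 for PPP2CA with PPP2CB. The VDAC genes had 599, 479, 302 and 315, and the SMAD genes 19.2, 19.2, 13.7 and 16.6. For the SEC24 genes the sums were 42.0, 41.1, 57.0 and 58.6. UBE2B with UBE2A had 82.8, 66.4, 69.8 and 72.2, and the JADE genes had 43.8, 38.9, 44.7 and 45.9.

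**Figure D5:**
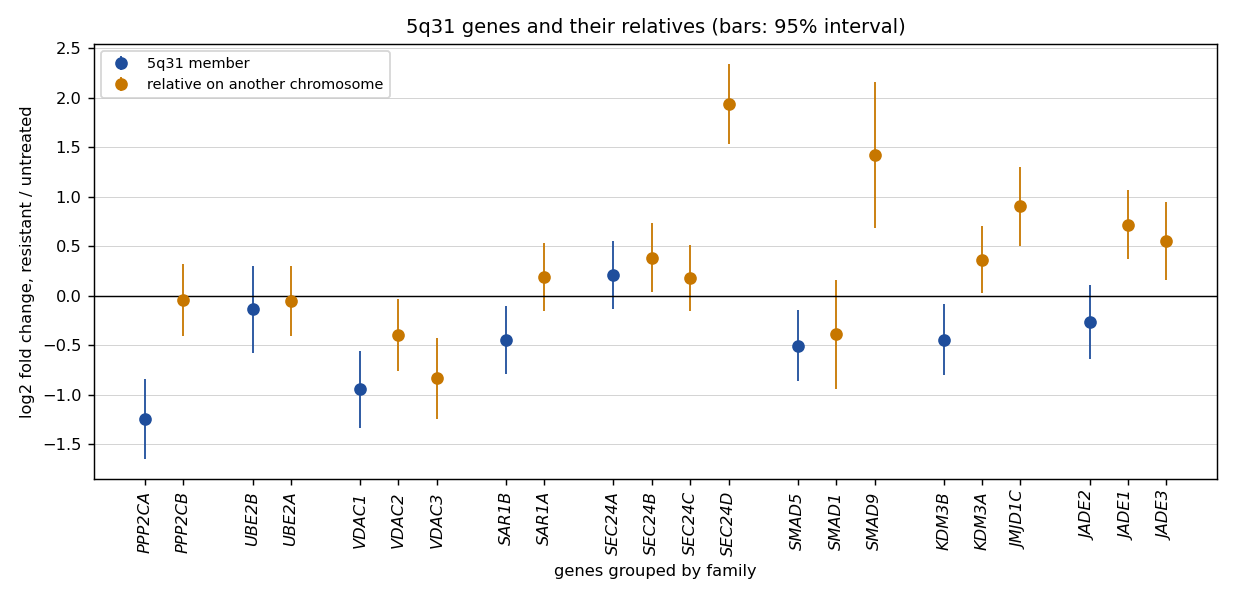
Log2 fold change with its 95% interval for 8 members (blue) and their 14 relatives on other chromosomes (orange), grouped by family. SEC24D (1.94) and SMAD9 (1.43) lie highest, and VDAC3 (−0.83) is the lowest of the relatives.

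Among genes whose products work with a member, calls went in both directions, as they did over all tested genes. Of 172 tested partners and relatives 19 were called higher and 36 lower, and 117 were not called. A like share of all tested genes was called, 34.0% (16.6% higher and 17.4% lower). The median log2 fold change was −0.15 over the partners and relatives and −0.01 over all tested genes. For SKP1, 2 of 16 genes of SCF ligases rose and 4 fell. FBXL5, an F-box protein that senses iron, rose (1.20, adjusted p = 5.09e-04), SKP2, the F-box protein of p27, fell (−1.10, adjusted p = 0.00125), as did CCNF, cyclin F (−1.01, adjusted p = 0.00126), and CAND1 did not pass (−0.15, adjusted p = 0.499). SKP2 and another of the 4 SCF genes that fell lie on chromosome 5 too, outside the stretch. For PPP2CA, 3 of 22 PP2A genes rose and 3 fell; among these were the regulatory subunit PPP2R3A (1.68, adjusted p = 0.00221), the methylesterase PPME1 (0.67, adjusted p = 0.00776) and the methyltransferase LCMT1 (−0.77, adjusted p = 0.0143), and SET did not pass (−0.17, adjusted p = 0.490). For UBE2B, 1 of 11 genes of the RAD6 pathway rose and 3 fell. PCNA, the sliding clamp that RAD6 modifies, fell by 2.27 in log2 (adjusted p = 9.11e-04), RAD18, its partner ligase, fell (−0.77, adjusted p = 0.0124), HLTF rose (0.68, adjusted p = 0.0174), and WAC did not pass (0.09, adjusted p = 0.668). For CDC23, 2 of 15 genes of the anaphase-promoting complex fell, CDC27 (−0.75, adjusted p = 0.00595) and ANAPC1 (−0.71, adjusted p = 0.00871), 0 rose, and CDC20 did not pass (−0.45, adjusted p = 0.0760).

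For DDX46, 7 of 14 U2 particle genes fell and 0 rose, with a median of −0.41. SF3A3 (−1.16, adjusted p = 8.22e-04), HTATSF1 (−0.91, adjusted p = 0.00177) and SF3B4 (−1.002, adjusted p = 0.00383) had the smallest adjusted p, and SF3B1 did not pass (−0.28, adjusted p = 0.215). For ETF1, 2 of 8 termination genes fell, GSPT1, the GTPase that acts with it (−0.75, adjusted p = 0.00654), and ABCE1, which splits ribosomes (−0.80, adjusted p = 0.00815), and UPF1 did not pass (0.01, adjusted p = 0.964). For SAR1B and SEC24A, 4 of 12 COPII genes rose and 1 fell. Besides SEC24D, TFG (0.99, adjusted p = 0.00131) and SEC31A (0.87, adjusted p = 0.00220) rose, and SEC23A did not pass (−0.26, adjusted p = 0.233). For CAMLG, GET1, its partner in the insertase, fell (−0.89, adjusted p = 0.00312), GET4 rose (0.62, adjusted p = 0.0126) and BAG6 did not pass (−0.06, adjusted p = 0.825), and the other 3 of these 6 genes did not pass.

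Among 8 partners of VDAC1, 1 rose and 3 fell. TSPO, an outer membrane protein, rose (0.91, adjusted p = 0.00207), SLC25A4, an ADP/ATP carrier, fell (−0.93, adjusted p = 0.00833) beside VDAC3, and SLC25A6 did not pass (0.07, adjusted p = 0.773). Of 16 NuA4/TIP60 genes, partners of BRD8, 3 fell and 0 rose, namely RUVBL2 (−0.65, adjusted p = 0.0128), EPC2 (−0.74, adjusted p = 0.0314) and RUVBL1 (−0.57, adjusted p = 0.0335), and TRRAP did not pass (0.01, adjusted p = 0.984). In the HBO1 complex of JADE2, 2 of 8 genes rose, JADE1 and JADE3, 0 fell, and KAT7, the acetyltransferase, did not pass (−0.02, adjusted p = 0.918). For KLHL3, 1 of 7 genes rose, WNK4 (1.98, adjusted p = 0.00446), and 2 fell, CUL3 (−0.83, adjusted p = 0.00335) and SLC12A2 (−0.89, adjusted p = 0.00412), and WNK1 did not pass (0.24, adjusted p = 0.298). SLC12A2 lies on chromosome 5, outside the stretch. For SMAD5, 3 of 13 BMP genes rose and 0 fell. Besides SMAD9, the receptor BMPR2 (0.69, adjusted p = 0.00933) and ID2, a target (0.86, adjusted p = 0.0322), rose, and ID1 did not pass (0.16, adjusted p = 0.484).

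Of the 36 named calls among partners and relatives, those of LCMT1, RAD18, HLTF, ANAPC1, GET4, GSPT1, ABCE1, RUVBL2, EPC2, RUVBL1, JADE3, SMAD9, BMPR2, VDAC3 and SLC25A4 ended without untreated replicate 1 (adjusted p from 0.0517 to 0.317). Without resistant replicate 1 those of RAD18, CDC27, ANAPC1, GET4, RUVBL2, EPC2 and RUVBL1 ended (adjusted p from 0.0518 to 0.163), and without resistant replicate 2 those of LCMT1, HLTF, JADE3, SMAD9 and ID2 (adjusted p from 0.0538 to 0.204). JADE3 and ID2 also lost theirs without untreated replicate 2 (adjusted p from 0.0748 to 0.148). FBXL5, PPME1, SEC31A, GET1, GET4, ABCE1, RUVBL1, JADE1, JMJD1C and WNK4 overlap another expressed gene. Among those not called, UBE2A, WAC, BAG6, TRRAP and KAT7 do so too. The values of these genes are uncertain to that extent.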

How the data were processed

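Polyadenylated RNA of 2 untreated and 2 resistant MIA-PaCa2 libraries was analysed from 1 table per library. The authors deposited a table of genes and their expected counts, as the column is called per the file headers, with no scaling. The submitters' processing notes name STAR 2.7.2b and RSEM 1.3.1, with build GRCh37. Their roles, the annotation release and the strand setting are not given in the sources used here. Of the values 93.6% were whole numbers, and all were rounded for the tests. Members were found by symbol. Gene order, overlaps (exons shared with a gene of at least 20 mean counts) and principal transcript lengths came from GENCODE 29 (GRCh38), from which no coordinates are given.

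Genes passing edgeR's filterByExpr (16090) were scaled with TMM (factors 0.962 to 1.05) and tested in edgeR 4.0.16 (R 4.3.3) with its robust quasi-likelihood F-test. Calls are at 0.05 after Benjamini-Hochberg adjustment over every tested gene. The common biological coefficient of variation was 19.6%. Standard errors (SE) were derived from the F values, and 95% intervals use the fit's degrees of freedom. The method was tested on simulated data. The members and the lists were chosen with earlier results of these data known. Named genes were all members, tested protein-coding genes inside the stretch and 3 on each side, up to 3 called genes and 1 gene not called per partner list, and the relatives of 8 members. The relatives of HNRNPA0 and REEP2 were named after their values were seen. As alternatives, scaling was by RLE or the upper quartile, the filter was dropped or raised to 1 CPM in 2 libraries, and the fit had a replicate block. Others were leaving out each library (a lone library is then assumed to vary like the other group), DESeq2 1.42.0, limma-voom 3.58.1 and members without overlaps.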

Additional observations from a re-analysis of the deposited data

How the results depend on the processing

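The members' median log2 fold change stayed below 0 under every alternative run. Leaving out 1 library gave −0.75 to −0.41, and −0.71 to −0.41 over the same 29 members, the lower values without resistant replicate 2. SPOCK1 joins the members tested in each of these refits but that without untreated replicate 1, and is called lower in them. The number of members called lower was thus 9 to 14 on leaving out 1 library (9 to 13 of the 29), 15 with no filter (13 of the 29, with SPOCK1 and SLC25A48), and 6 over the 18 members that overlap no other expressed gene, where fewer members are counted. The number called higher was 0 except for 1 without untreated replicate 2 (REEP2). The interquartile range was 0.73 to 0.84 on leaving out 1 library (0.70 to 0.83 over the 29), 0.79 with no filter, 0.70 with the stricter one and 0.65 without overlapping members. For the rest of chromosome 5 the median was −0.44 to −0.34 on leaving out 1 library. Partners and relatives called higher numbered 12 to 18 on leaving out 1 library, and those called lower 12 to 35. With the replicate block 11 members were called lower, their median was −0.52, and the number of partners called lower was 34. The calls of SAR1B and ID2 ended under it. Same-numbered libraries share only a number, and their deviations from the group means did not go together (correlation −0.0604 over genes).

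Signs turned where values were near 0. On leaving out 1 library, the log2 fold change ran from −0.23 to 0.38 for CDKL3, from −0.39 to 0.18 for UBE2B, from −0.12 to 0.0370 for CAMLG, from −0.10 to 0.66 for REEP2 and from −0.35 to 0.0379 for SET. In the same refits it ran from −0.23 to 0.11 for BAG6, from −0.13 to 0.17 for UPF1, from −0.0537 to 0.0765 for TRRAP, from −0.0451 to 0.0109 for KAT7 and from −0.0456 to 0.20 for SLC25A6. It further ran from −0.19 to 0.14 for PPP2CB, from −0.18 to 0.10 for UBE2A, from −1.42 to 0.66 for PKD2L2 and from −0.0278 to 0.26 for KIF20A. Upper-quartile scaling put KAT7 at 0.00119 and PKD2L2 at 0.0110, and the stricter filter put KAT7 at 0.00722. The cause of these changes was not tested. Depth limits the genes under 1 CPM, CATSPER3, GFRA3 and PKD2L2, and the 9 members that were not tested.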

Other observations

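HNRNPA0 and REEP2 have relatives on other chromosomes whose values were not yet given, and these were named after they had been seen. HNRNPA1, HNRNPA2B1 and HNRNPA3, 3 abundant hnRNP A/B genes that bind RNA and steer splicing, fell by like amounts. HNRNPA1 went from 1499 and 1319 CPM in untreated to 755 and 869 CPM in resistant libraries (log2 difference −0.80, SE 0.17, adjusted p = 0.00557 with edgeR's quasi-likelihood test). HNRNPA3 had −0.80 (SE 0.17, adjusted p = 0.00580) and HNRNPA2B1 −0.78 (SE 0.20, adjusted p = 0.0131). None of the 3 was called without untreated replicate 1 or without resistant replicate 1, with adjusted p up to 0.163. HNRNPA2B1 overlaps CBX3, and HNRNPA1 and HNRNPA3 have processed pseudogenes, so their values are uncertain to that extent. HNRNPA0, on chromosome 5, had −1.18 (SE 0.18), and its difference from its relatives was not tested. HNRNPAB, also on chromosome 5 but outside the stretch, had −1.87 and thus lay apart from the 3.

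Among the relatives of REEP2, REEP4, which keeps the endoplasmic reticulum off mitotic chromosomes, fell from 68.0 CPM in both untreated libraries to 38.3 and 40.4 CPM (−0.79, SE 0.16, adjusted p = 0.00362). REEP1, a shaper of the endoplasmic reticulum in neurons, fell from 2.76 and 3.26 CPM to 0.759 and 1.07 CPM (−1.71, SE 0.44, adjusted p = 0.0125). REEP3 did not pass (0.33, adjusted p = 0.176). Both calls held on leaving out each library.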
